A study of Homo sapiens with 15 samples.

Results

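Cancer-testis antigen genes were followed across 15 RNA-seq libraries of the human glioma cell lines U87 and U251. The set was taken by symbol: all MAGE, GAGE, PAGE, XAGE, CTAG and SSX genes of the deposited table, leaving out symbols that end in P or in P and a digit, as most pseudogene symbols do. Of 97 matching symbols 19 were left out, which gave 78 genes of 60612 in the table. The set held 13 MAGEA, 11 MAGEB, 3 MAGEC, 4 MAGED and 2 MAGEE genes, MAGEF1, MAGEH1 and MAGEL2, 13 GAGE, 6 PAGE, 5 XAGE, 9 SSX, 3 CTAG and 6 CTAGE genes. CTAGE genes form a separate family that the symbol pattern also takes in. Of the 78 genes 69 lie on chromosome X, and the 9 others are the CTAGE genes, MAGEF1, MAGEL2 and SSXP10. SSXP10 also has a symbol of the pseudogene form, but it stayed in because the rule covers only a P and a digit.

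The study asked what changes in glioma cells when LAMP2A is depleted. LAMP2A is the isoform of LAMP2 that acts as the receptor of chaperone-mediated autophagy, by which lysosomes take up single proteins. There were 3 libraries in each of 5 groups: U87 with hairpin 1812, U87 control, U251 with hairpin 1812, U251 with hairpin 1813, and U251 control. Hairpins 1812 and 1813 are short hairpin RNAs against LAMP2A in stably transfected cells. Controls carry the genotype label WT and no control hairpin is named for them, so the hairpin and the act of transfection and selection cannot be told apart in these comparisons. The labels do not state that the libraries of a group are separate cultures. A p-value here is set by the spread among these libraries, which may be technical.

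Cancer-testis antigens are proteins made in male germ cells and few other adult tissues, and again in many tumours, where they can be seen by T cells. Type I MAGE genes (MAGEA, MAGEB and MAGEC) lie in clusters on the X chromosome, are kept silent in somatic cells largely by DNA methylation of their promoters, and encode partners of RING-type ubiquitin ligases. Type II MAGE genes (MAGED, MAGEE, MAGEF, MAGEH and MAGEL) share the MAGE homology domain but are expressed in many normal tissues, the brain among them.

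Total counts were 14002652 to 18924072 per library. LAMP2, counted over the whole gene and so not separating LAMP2A from its other isoforms, stood at 24.5 to 28.4 FPKM in U87 with hairpin 1812 and 18.3 to 32.1 FPKM in U87 control. In U251 it stood at 34.6 to 36.4 FPKM with hairpin 1812 and 40.6 to 45.1 FPKM with hairpin 1813, against 71.0 to 82.8 FPKM in control, so all hairpin libraries lay below all controls in U251 and the groups overlapped in U87. FPKM are counts scaled by exonic length and by the library's total. In each group replicates 2 and 3 were the most alike and replicate 1 was farther from both. Control replicates 2 and 3 of both lines also stood apart from the other 11 libraries: the nuclear RNA MALAT1 was at 29.2 to 48.6 FPKM in these 4 and at 3.26 to 11.6 FPKM elsewhere. Values against control replicate 1 alone are therefore given where they end a call. Summed FPKM of 15 glioma and astrocyte markers was 922 to 1523 in every library, but VIM alone stood at 594 to 1190 FPKM. A level of 1 FPKM was reached by 7 of the 15 in each U87 group and by 10 in each U251 group. SOX2 was at 0 to 0.13 FPKM in both U87 groups against at least 40.8 FPKM in the U251 libraries. GFAP was at most 0.19 FPKM in U87 and at least 1.09 FPKM in U251. CHI3L1 ran the other way, at 7.54 to 83.9 FPKM in U87 and at most 0.38 FPKM in U251. The sum over 17 germ cell markers was 0.91 to 3.45 FPKM, with 6 to 9 of them at 0 counts in each group.

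The promoters of the genes on which the results turn are shown first, as RefSeq gives them in GRCh38.p14, from 250 bases before to 50 bases after the transcription start. MAGEA3 and MAGEA6 were the highest type I genes in U251, MAGEA12 lies between them on the chromosome, and MAGEC2 was the highest type I gene in U87. Capitals mark CG dinucleotides, the sites of DNA methylation. MAGEA3 and MAGEA6 lie on opposite strands and were identical at 300 of 300 positions, so their window is printed once.
MAGEA3 (chrX:152698544-152698843, plus strand) and MAGEA6 (chrX:152769640-152769939, minus strand): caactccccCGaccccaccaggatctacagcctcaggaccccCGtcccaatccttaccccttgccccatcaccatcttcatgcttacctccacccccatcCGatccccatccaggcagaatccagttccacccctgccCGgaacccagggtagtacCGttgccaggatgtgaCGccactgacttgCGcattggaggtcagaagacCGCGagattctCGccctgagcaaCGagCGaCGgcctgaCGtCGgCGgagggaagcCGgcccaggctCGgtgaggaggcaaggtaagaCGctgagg
MAGEA12 (chrX:152733507-152733806, plus strand): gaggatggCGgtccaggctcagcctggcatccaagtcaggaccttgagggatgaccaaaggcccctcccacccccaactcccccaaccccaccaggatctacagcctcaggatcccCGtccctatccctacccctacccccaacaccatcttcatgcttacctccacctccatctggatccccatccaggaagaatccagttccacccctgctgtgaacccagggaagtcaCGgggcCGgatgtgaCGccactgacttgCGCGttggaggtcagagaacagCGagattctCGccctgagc
MAGEC2 (chrX:142205241-142205540, minus strand): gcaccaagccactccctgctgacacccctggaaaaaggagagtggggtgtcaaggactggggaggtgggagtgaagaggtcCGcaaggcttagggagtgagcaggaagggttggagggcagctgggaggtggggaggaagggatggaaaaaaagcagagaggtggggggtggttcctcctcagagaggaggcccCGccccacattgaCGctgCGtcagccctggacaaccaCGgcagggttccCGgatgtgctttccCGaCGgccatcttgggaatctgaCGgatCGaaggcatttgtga

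The window held 19 CG dinucleotides for MAGEA3 and for MAGEA6, 9 for MAGEA12 and 10 for MAGEC2, against a median of 14 over all 35116 promoters of the table. A second MAGEA12 start gave an overlapping window with 15. The letters GGATGTG, chosen after the sequences were seen and searched on both strands, occur in the windows of MAGEA3, MAGEA6 and MAGEC2 and in both windows of MAGEA12. The match starts 86 bases before the start of MAGEA3 and MAGEA6, 12 bases before the printed start of MAGEA12 (117 before its second start) and 6 bases before that of MAGEC2. In the printed MAGEA12 and MAGEC2 windows its first base is also the G of a CG dinucleotide. It was found in 16 of 16 MAGEA windows (10 genes) and in 21 of 31 windows of type I genes, against 0 of 11 windows of type II genes and 4.29% of all windows. It was also found in 4 of 6 CTAGE windows and 3 of 8 SSX windows, and in none of the GAGE, PAGE and XAGE windows. The 67 members with a RefSeq promoter had 86 windows, and 28 of these held the letters. Many of them are near copies of one another, and the windows from which the letters were chosen are counted too. These shares are therefore a description. Promoter methylation was not measured.

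Most members had few or no counts. Of the 78 genes 27 had no count in any library, which over 236341583 counts allows at most 0.0127 CPM (counts scaled to library size alone, at a limit of 3 counts that covers counting error only). They comprised all 3 CTAG genes, which encode the NY-ESO-1 antigen and its relative, 9 of 13 GAGE genes, 6 of 11 MAGEB genes, 4 of 9 SSX genes, 3 of 6 PAGE genes, 1 CTAGE gene and 1 MAGEA gene. Of these 27 genes 15 share over 50% of their 100-base stretches with another gene, among them CTAG1A and CTAG1B, all 9 GAGE genes and SSX2. Reads from such copies may not be assigned to either, so for these 15 genes a count of 0 does not show absence of the transcript. The 9 that share none were MAGEB1, MAGEB2, MAGEB3, MAGEB4, MAGEB5, MAGEB10, PAGE3, PAGE4 and SSX3. A further 29 genes had counts but stayed under 0.1 FPKM in every group mean. Another 9 reached 0.1 FPKM in a group yet had too few counts to be tested. The remaining 13 passed the filter on low counts: 7 of 27 type I and 6 of 9 type II MAGE genes, and no gene of the other families. Members at or above a group mean of 0.1 FPKM numbered 7 in U87 with hairpin 1812 and 12 in U87 control. In U251 they numbered 16 with hairpin 1812, 16 with hairpin 1813 and 16 in control.

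**Figure D1:**
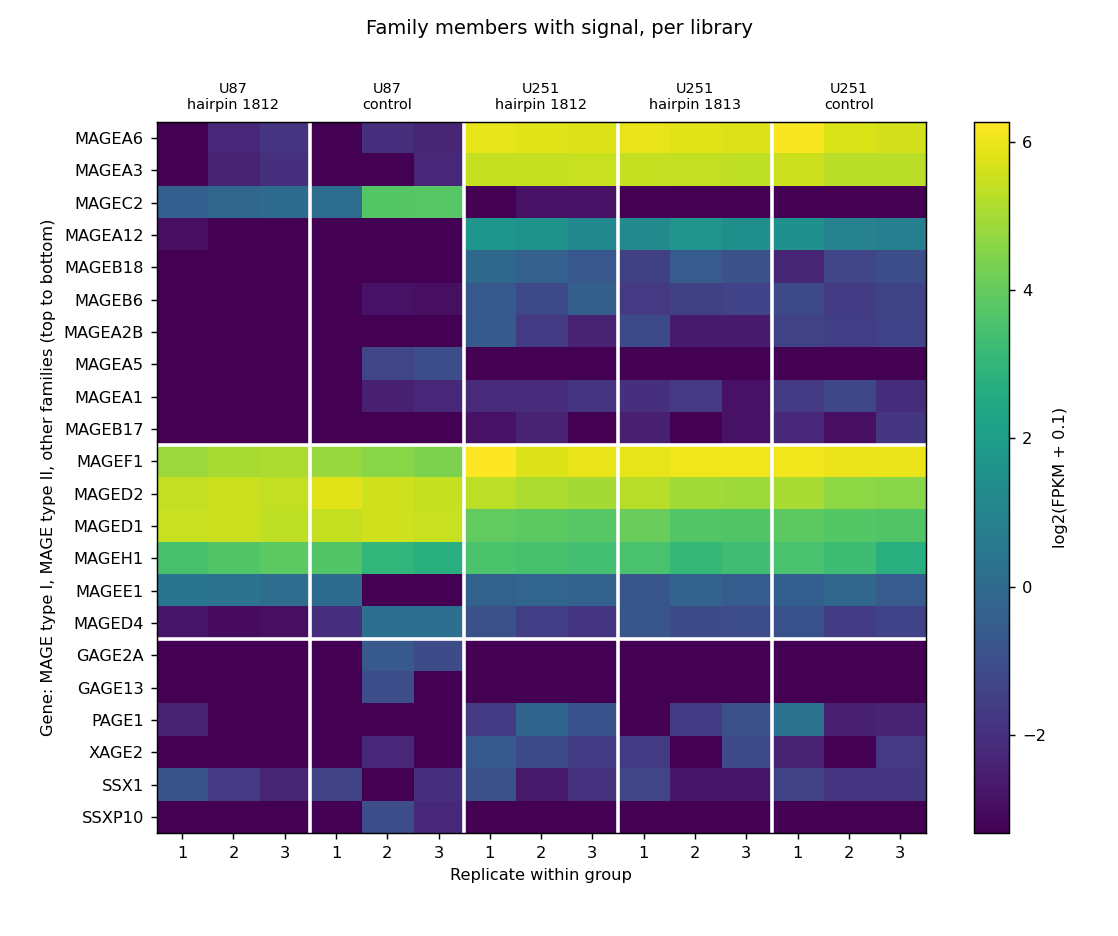
Colour gives log2(FPKM + 0.1) of the 22 members that were tested or reached 0.1 FPKM in a group, in each of the 15 libraries. MAGEA3 and MAGEA6 are bright in all 9 U251 libraries and dark in U87, MAGEC2 is bright in U87 control replicates 2 and 3, and the type II genes MAGEF1, MAGED1, MAGED2 and MAGEH1 are bright throughout.

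The summed level of the type I genes separated the lines, while that of the type II genes did not. Type I genes summed to 0.65 to 1.30 FPKM in U87 with hairpin 1812 and to 1.01, 13.9 and 14.3 FPKM in U87 control. In U251 the sum was 103 to 109 FPKM with hairpin 1812, 98.6 to 108 FPKM with hairpin 1813 and 91.5 to 122 FPKM in control. Most of the U251 sums came from MAGEA3 (group means 41.4 to 43.4 FPKM) and MAGEA6 (57.1 to 58.0 FPKM). In U87 control replicates 2 and 3 most came from MAGEC2 (13.1 and 13.5 FPKM). The contrast is therefore that of a few genes and not of the whole class. Type II genes summed to 127 to 136 FPKM in U87 with hairpin 1812, 116 to 142 FPKM in U87 control, 114 to 145 FPKM in U251 with hairpin 1812, 120 to 127 FPKM with hairpin 1813 and 107 to 127 FPKM in U251 control. No group of libraries lay outside the others for type II. In bulk RNA, fewer cells expressing a gene and less RNA per cell cannot be told apart, so a low sum may be either.

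The first comparison asks what hairpin 1812 changed in U87. MAGEC2 and MAGED4 were called lower and no member was called higher. The call of MAGEC2 and the sizes of both changes rest in large part on control replicates 2 and 3. Of 13 members tested 2 were called lower and 0 higher, where a call is an adjusted p under 0.05 with a change of at least 2-fold. Over all 16841 genes tested 4.71% were called lower and 2.08% higher. At an unadjusted p under 0.05 there were 3 members, the third being MAGEF1, and DESeq2 also called 2 members.

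MAGEC2 (ENSG00000046774, chrX:142202342-142205290 in GRCh38, minus strand) encodes a type I MAGE protein that binds the ligase TRIM28. Its level was 0.62, 0.80 and 0.92 FPKM in U87 with hairpin 1812, against 1.01, 13.1 and 13.5 FPKM in U87 control. All 3 hairpin libraries lay below all controls, but control replicate 1 lay much nearer to them than to the other two controls. In CPM the means were 1.70 ± 0.32 with the hairpin and 18.0 ± 13.6 in control (SD, n = 3 each). The log2 fold change was -3.40 (SE 0.72, adjusted p 0.0133, edgeR quasi-likelihood test with Benjamini-Hochberg adjustment). Against control replicate 1 alone it was -0.44 (edgeR adjusted p 0.634), and with a term for control replicates 2 and 3 in the fit it was -0.45 (edgeR adjusted p 0.473). The call was also lost when each hairpin library in turn was left out (edgeR adjusted p 0.0501 to 0.0566). It was lost as well in a fit of the U87 groups alone (edgeR adjusted p 0.128), which called 1 of 14729 genes higher and 0 lower. No 100-base stretch of its annotated transcripts recurs in another gene of GENCODE 29. The antisense gene AL031073.2 overlaps it throughout and had 1 count in all 15 libraries.

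MAGED4 (chrX:52184823-52192268, plus strand) is a type II gene known for its expression in brain and glioma. It stood at 0.05, 0.02 and 0.03 FPKM in U87 with hairpin 1812, against 0.15, 1.02 and 1.04 FPKM in U87 control. The groups did not overlap, and here too control replicate 1 was the lowest control. Counts were 4, 2 and 2 with the hairpin and 12, 69 and 79 in control. Its log2 fold change was -4.27 (SE 0.69, edgeR adjusted p 0.00189), and against control replicate 1 alone it was -2.17 (SE 0.72, edgeR adjusted p 0.0431). It did not pass in the fit of the U87 groups alone (edgeR adjusted p 0.107), which called 0 of all genes lower. Of its 100-base stretches 98.1% recur in its copy MAGED4B, so counts of the pair are uncertain. MAGED4B had no count in U87 with hairpin 1812 and stood at 0, 0.17 and 0.06 FPKM in U87 control.

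MAGEE1, a type II gene whose protein binds dystrobrevin, had a different layout. It stood at 1.23, 1.16 and 0.99 FPKM in U87 with hairpin 1812, against 0.91, 0 and 0 FPKM in U87 control. Control replicate 1 was close to the hairpin libraries, whereas control replicates 2 and 3 had no count, which allows up to 0.208 and 0.186 CPM. Its log2 fold change of 1.83 (SE 0.87) did not pass (edgeR adjusted p 0.175), and against control replicate 1 alone it was 0.24 (edgeR adjusted p 0.627). Without control replicate 1, which leaves only libraries at 0 as controls, it passed (edgeR adjusted p 8.4e-08), as it did with no filter on low counts (1.1e-04). The 12 libraries outside U87 control all had MAGEE1 counts, from 28 to 80. U251 control replicates 2 and 3, which share the high MALAT1 level, had 53 and 34 counts of MAGEE1 and none of MAGEC2. What sets U87 control replicates 2 and 3 apart from replicate 1 in these genes was not tested.

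**Figure D2:**
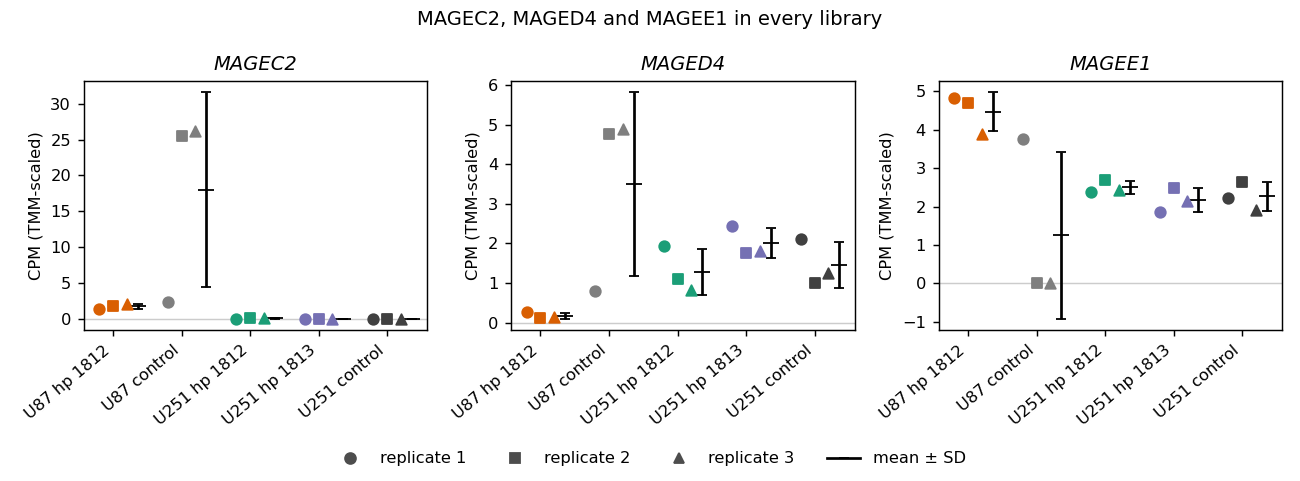
Points are single libraries, in TMM-scaled CPM, with the shape giving the replicate number and the bars the mean and SD of 3 libraries. U87 control replicates 2 and 3 are the highest 2 libraries for MAGEC2 (25.5 and 26.2 CPM) and MAGED4 (4.77 and 4.89 CPM) and the only libraries at 0 for MAGEE1. The lower bar of MAGEE1 in U87 control passes below 0 because its SD exceeds its mean.

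None of the other type II genes was called in U87. MAGEF1, whose protein directs the ligase NSMCE1 in DNA repair, stood at 28.3, 32.1 and 34.05 FPKM with hairpin 1812, against 27.3, 23.5 and 20.7 FPKM in control. The groups did not overlap, but the log2 fold change of 0.48 (SE 0.17) missed the threshold (edgeR adjusted p 0.0705). MAGEH1 averaged 12.7 ± 1.59 FPKM with the hairpin and 9.04 ± 3.19 FPKM in control (SD, n = 3 each), and its log2 fold change was 0.55 with a 95% interval of -0.05 to 1.15. MAGED1, an adaptor of the neurotrophin receptor NGFR, had a log2 fold change of 0.03 with an interval of -0.27 to 0.33. MAGED2, in which mutations cause a transient antenatal form of Bartter syndrome, had one of -0.12 with an interval of -0.54 to 0.30. These intervals rest on a spread estimated over all 5 groups, while U87 control replicate 1 stood far from replicates 2 and 3. On that spread they leave out changes of 2-fold for MAGED1 and MAGED2 and for MAGEF1 (0.12 to 0.84), not for MAGEH1.

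The type I genes on chromosome X other than MAGEC2 were close to silent in U87. MAGEA3 had 7 counts with hairpin 1812 and 3 in control, and MAGEA6 had 9 and 7 counts. MAGEA12 had 1 count with the hairpin and 0 in control, MAGEB6 had 0 and 2, and MAGEB18 and MAGEA2B had no count in either group. Among members with too few counts for the test, several appeared in U87 control replicates 2 and 3 and in no other library. These were MAGEA5 (0, 0.30 and 0.40 FPKM in U87 control, 10 counts), GAGE2A (0, 0.54 and 0.36 FPKM, 7 counts) and SSXP10 (0, 0.38 and 0.11 FPKM, 4 counts). GAGE13 had 3 counts, all in U87 control replicate 2 (0.40 FPKM). MAGEA5, GAGE2A and GAGE13 share 53.1%, 53.4% and 80.5% of their 100-base stretches with other genes. SSXP10 is overlapped over 565 bases by CEP85L on the opposite strand. The source of these few counts is therefore uncertain. U87 libraries with hairpin 1812 had counts in 13, 11 and 11 members, against 10, 19 and 19 in U87 control. Over all genes they had counts in 22407, 22431 and 22266 genes, against 22017, 24296 and 24813 in U87 control. Control replicates 2 and 3 were thus the highest for members and for all genes alike.

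Both hairpins were compared with control in U251, where LAMP2 was lower. No member was called with either. With hairpin 1812 0 of 13 members were called by edgeR, against 0.249% of all genes higher and 0.243% lower. With hairpin 1813 0 of 13 were called, against 0.0119% higher and 0.0178% lower. At an unadjusted p under 0.05 there was 1 member with hairpin 1812 (MAGEB18) and 0 with hairpin 1813, and DESeq2 called 0 members with either hairpin. The hairpin groups share their controls.

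MAGEA3 (chrX:152698767-152702347) and MAGEA6 (chrX:152766136-152769747) encode near-identical proteins that direct TRIM28 against the energy sensor AMPK. MAGEA3 stood at 42.9, 42.8 and 44.4 FPKM with hairpin 1812 and at 43.1, 41.4 and 40.7 FPKM with hairpin 1813, against 46.4, 38.8 and 38.9 FPKM in control. Both hairpin groups lay within the range of the controls. The log2 fold changes were 0.09 (95% interval -0.43 to 0.60) for hairpin 1812 and 0.09 (-0.43 to 0.61) for hairpin 1813. MAGEA6 stood at 60.6, 55.9 and 54.9 FPKM with hairpin 1812 and 61.1, 56.7 and 54.2 FPKM with hairpin 1813, against 71.8, 52.8 and 49.5 FPKM in control. Its log2 fold changes were -0.01 (-0.58 to 0.56) and 0.05 (-0.51 to 0.62). A change of 2-fold in either direction lay outside the interval for both genes and both hairpins.

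MAGEA12 (chrX:152733757-152737669) stood at 3.22, 2.98 and 2.12 FPKM with hairpin 1812 and 2.25, 3.09 and 2.61 FPKM with hairpin 1813, against 2.68, 1.81 and 1.67 FPKM in control. The groups overlapped. Its log2 fold changes were 0.44 for each hairpin, with intervals of -0.23 to 1.12 for 1812 and -0.24 to 1.11 for 1813, which do not leave out a 2-fold rise. The ratio of MAGEA6 to MAGEA3 FPKM was 1.24 to 1.55 over the 9 U251 libraries (median 1.36). That of MAGEA12 to MAGEA3 was 0.0429 to 0.0750. CSAG4 overlaps MAGEA12 over 3843 bases on the same strand. Reads that fall in both may not be assigned to either, so the level of MAGEA12 may be too low. MAGEA3 and MAGEA6 share 34.9% and 33.0% of their 100-base stretches with another gene, nearly all with each other, so the split of reads between them is uncertain.

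**Figure D3:**
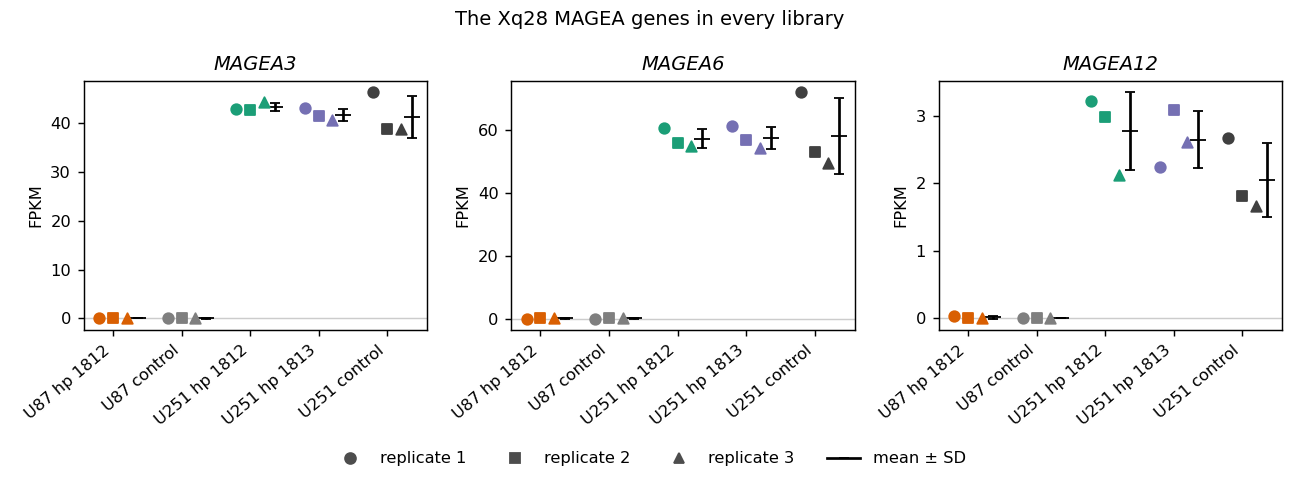
Points are single libraries in FPKM, with the shape giving the replicate number and the bars the mean and SD of 3 libraries. MAGEA3, MAGEA6 and MAGEA12 are at or near 0 in both U87 groups, and the hairpin groups overlap the control group in U251, where replicate 1 is the highest control for all 3 genes.

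The weakly expressed type I genes had wide intervals in U251. MAGEB18 stood at 0.83, 0.67 and 0.51 FPKM with hairpin 1812 and 0.25, 0.57 and 0.42 FPKM with hairpin 1813, against 0.10, 0.30 and 0.38 FPKM in control. All 3 libraries with hairpin 1812 lay above all controls, and those with 1813 overlapped them. The log2 fold change of 1.40 for hairpin 1812 (SE 0.51) rests on 52 counts against 24 and did not pass (edgeR adjusted p 0.226). MAGEB6 stood at 0.52, 0.33 and 0.65 FPKM with hairpin 1812 and 0.20, 0.25 and 0.28 FPKM with hairpin 1813, against 0.33, 0.22 and 0.29 FPKM in control. Its log2 fold changes were 0.85 (edgeR adjusted p 0.357) and -0.13 (0.911). MAGEA2B stood at 0.56, 0.21 and 0.09 FPKM with 1812 and 0.35, 0.06 and 0.06 FPKM with 1813, against 0.27, 0.24 and 0.28 FPKM in control, and its libraries overlapped. It shares 82.4% of its 100-base stretches with MAGEA2, which had 5 or 6 counts in each U251 group and none in U87. MAGEC2 had 2 counts with hairpin 1812, 0 with hairpin 1813 and 0 in control, which for the U251 controls allows up to 0.0548 CPM.

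None of the type II genes was called in U251. MAGEF1 averaged 64.5 ± 11.6 FPKM with hairpin 1812 and 65.1 ± 4.27 FPKM with hairpin 1813, against 64.9 ± 2.08 FPKM in control (SD, n = 3 each). MAGED2 averaged 34.8 ± 4.28 and 32.4 ± 4.67 FPKM with the hairpins 1812 and 1813, against 27.1 ± 5.34 FPKM in control, with log2 fold changes of 0.37 (95% interval -0.05 to 0.79) and 0.33 (-0.09 to 0.75). MAGED2 was higher in the hairpin library of each same-numbered pair, and with the replicate block the log2 fold changes were 0.39 (edgeR adjusted p 0.156) and 0.34 (0.240), which did not pass. MAGED1 averaged 14.5 ± 0.845 and 14.1 ± 2.16 FPKM, against 13.4 ± 0.981 FPKM in control. MAGEH1 averaged 11.1 ± 0.572 and 9.88 ± 1.57 FPKM, against 9.11 ± 2.51 FPKM. MAGEE1 averaged 0.72 ± 0.0436 and 0.60 ± 0.10 FPKM, against 0.663 ± 0.112 FPKM, and MAGED4 averaged 0.280 ± 0.125 and 0.417 ± 0.0723 FPKM, against 0.313 ± 0.114 FPKM.

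**Figure D4:**
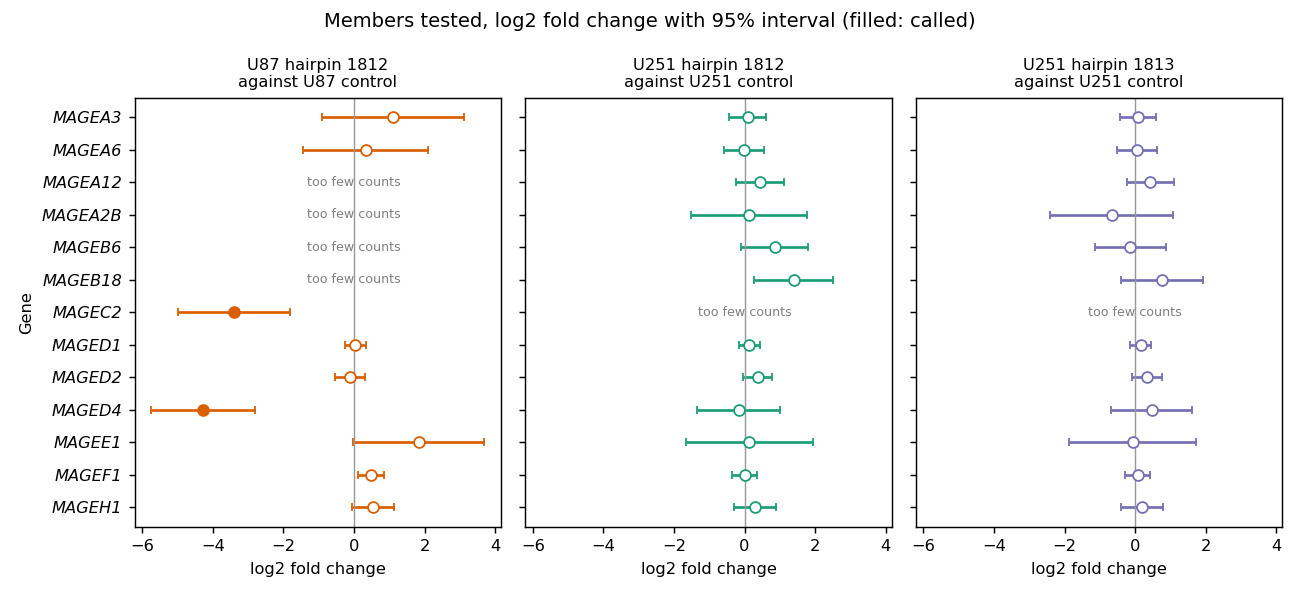
Each panel gives the edgeR log2 fold change of the 13 tested members in a hairpin group against the control of its line, with its 95% interval, filled where called. MAGEC2 (-3.40) and MAGED4 (-4.27) in U87 are the only filled points, and the intervals of MAGEA3 and MAGEA6 in U251 lie between -1 and 1. Genes at or under 3 counts in both groups have no point.

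Hairpin 1812 set against hairpin 1813 in U251 gave 0 of 13 members called by edgeR, against 0.0297% of all genes higher and 0.0238% lower. At an unadjusted p under 0.05 there was 1 member, MAGEB6 (log2 fold change 0.98, edgeR adjusted p 0.796), and DESeq2 called 0. The levels with 1812 lay above those with 1813 in all libraries for MAGEB6 and overlapped for MAGEA3, MAGEA6 and MAGEA12.

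The effect of hairpin 1812 was then compared between the lines. MAGED4 was the only member called: its effect in U87 was lower than its effect in U251, with a log2 difference of -4.11 (SE 0.90, edgeR adjusted p 0.0215). That is 1 of 13 members lower and 0 higher, against 1.79% of all genes lower and 1.44% higher. In U251 MAGED4 stood at 0.42, 0.24 and 0.18 FPKM with hairpin 1812, against 0.44, 0.22 and 0.28 FPKM in control, and the groups overlapped. Against control replicate 1 alone in each line the difference was -1.47 and did not pass (edgeR adjusted p 0.323). The call was also lost without U87 control replicate 2, U87 hairpin replicate 2 or 3, U251 control replicate 2 or 3, or U251 hairpin replicate 1 or 2 (edgeR adjusted p 0.0509 to 0.0650). For MAGEC2 the difference did not pass (edgeR adjusted p 0.401), and it passed without U87 control replicate 1 (0.0125) and by DESeq2 (adjusted p 0.0384). MAGEC2 had 2 counts in all in the U251 libraries of these groups, so no fold change is given for that line.

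The controls were also compared between the lines. U251 control had higher MAGEA3, MAGEA6, MAGEA12, MAGEA2B, MAGEB6, MAGEB18 and MAGEF1 than U87 control, and lower MAGEC2 and MAGED1. That is 7 of 13 members higher and 2 lower, against 15.7% and 15.9% of all genes. Type I members passed the filter on low counts through the line in which they are high, so for these the count is a description.

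MAGEA3 had 3781 counts in U251 control and 3 in U87 control, a ratio of 1046 after scaling (exact 95% interval 358 to 5074, counting error only). MAGEA6 had 5575 counts in U251 control and 7 in U87 control, a ratio of 661 after scaling. MAGEA12 had 208 counts in U251 control and 0 in U87 control, at least 57.5-fold higher when U87 is set to a floor of 3 counts in its 3 libraries together. By the same floor MAGEA2B (33 counts against 0) was at least 9.13-fold higher and MAGEB18 (24 against 0) at least 6.64-fold higher. MAGEB6 had 28 counts in U251 control and 2 in U87 control, a ratio of 11.6 (exact 95% interval 2.93 to 101). All 3 U251 control libraries had more counts than any U87 control for these 6 genes, but for MAGEB18 replicate 1 had 3 counts, which is the floor itself. With control replicate 1 alone kept in each line MAGEA2B and MAGEB18 were not called.

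MAGEC2 ran the other way. It had 0 counts in U251 control and 826 in U87 control, at least 332-fold lower in U251 against the floor of 3 counts over the group. Against U87 control replicate 1 alone, the lowest control, it was at least 41.8-fold lower. The highest type I gene thus differed between the lines, MAGEA6 in U251 and MAGEC2 in U87.

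Among type II genes MAGEF1 (chr3:184710364-184712064) stood at 67.3, 63.9 and 63.6 FPKM in U251 control, against 27.3, 23.5 and 20.7 FPKM in U87 control. The groups did not overlap and the log2 fold change was 1.32 (SE 0.17, edgeR adjusted p 1.4e-05). MAGED1 (chrX:51803007-51902354) stood at 14.4, 13.4 and 12.4 FPKM in U251 control, against 43.5, 47.7 and 43.9 FPKM in U87 control, a log2 fold change of -1.87 (SE 0.14, edgeR adjusted p 7.4e-08). MAGED2 passed the adjusted p but not the 2-fold limit (log2 fold change -0.99, edgeR adjusted p 7.4e-04). MAGEH1 (-0.13), MAGEE1 (0.86) and MAGED4 (-1.27, edgeR adjusted p 0.0570) did not pass. MAGED4 passed without U251 control replicate 1 (-1.63, edgeR adjusted p 0.0382) or U87 control replicate 1 (-1.73, 5.7e-04), and MAGED2 passed the 2-fold limit without U251 control replicate 1 or U87 control replicate 2 or 3 (-1.21 to -1.06). MAGEE1 passed without U87 control replicate 1 (edgeR adjusted p 1.1e-07). With control replicate 1 alone kept in each line, a single library against a single library, MAGED4 turned to 1.37 and MAGEE1 to -0.76. Neither passed the threshold. By FPKM the order in U251 control was MAGEF1, MAGEA6, MAGEA3, MAGED2, MAGED1 and MAGEH1, where MAGEF1 and MAGEA6 overlapped between libraries. In U87 control it was MAGED2, MAGED1, MAGEF1, MAGEC2 and MAGEH1, where MAGED2 overlapped MAGED1 and MAGEC2 overlapped MAGEH1.

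MAGEA3, MAGEA12 and MAGEA6 lie in 71.0 kb of Xq28 (chrX:152698767-152769747), a stretch with 10 annotated genes. Of the other genes in this stretch, CSAG1, CSAG2 and CSAG3 also had more counts in each U251 group than in either U87 group. CSAG1, a cancer-testis gene next to MAGEA12, averaged 4.36 FPKM in U251 with hairpin 1812, 3.84 FPKM with hairpin 1813 and 2.67 FPKM in control. CSAG3 averaged 1.85, 1.08 and 1.64 FPKM in these groups. In U87 each of the 10 genes averaged under 0.1 FPKM in both groups. MAGEA1, the founding member of the family, lies outside the stretch and averaged up to 0.22 FPKM in U251 control. It had no count in U87 with hairpin 1812 and 5 counts in U87 control.

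The untested members with few counts did not share a single pattern across the lines. PAGE1 had 13 counts with hairpin 1812, 6 with hairpin 1813 and 14 in control, 12 of the last in replicate 1, against 1 in U87 with hairpin 1812 and 0 in U87 control. XAGE2 had 10, 5 and 3 counts in the same U251 groups, 0 in U87 with hairpin 1812 and 1 in U87 control. MAGEB17 had 3, 3 and 9 counts in the U251 groups and none in U87. SSX1, a fusion partner of SS18 in synovial sarcoma, was spread over both lines, with 17 counts in U87 with hairpin 1812, 9 in U87 control, and 12, 8 and 14 in the U251 groups. None of these genes had enough counts to be tested.

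Other gene lists bear on how cancer-testis genes are kept silent or what their proteins bind. Among 23 tested cancer-testis genes outside the set, 3 were called higher and 2 lower in U87 with hairpin 1812. Over all genes 2.08% were called higher and 4.71% lower. The median log2 fold change of the list was 0.37, against -0.03 over all genes. IL13RA2, a decoy receptor for interleukin 13 known as a glioma antigen, stood at 99.1, 54.3 and 62.9 FPKM with the hairpin, against 20.1, 44.5 and 41.6 FPKM in control. The 95% interval of its log2 fold change was 0.61 to 1.68 (edgeR adjusted p 0.00964), and the log2 fold change was 1.78 against control replicate 1 alone (edgeR adjusted p 0.00128). CT45A1 stood at 4.17, 3.47 and 2.61 FPKM, against 1.66, 0.96 and 1.15 FPKM (log2 fold change 1.51, edgeR adjusted p 0.00720), and it stood at 0.99 against control replicate 1 alone (edgeR adjusted p 0.0505). TEX15, a germ cell gene, was at 0, 0.01 and 0 FPKM, against 0.01, 0.14 and 0.16 FPKM, and it was not called against control replicate 1 alone (edgeR adjusted p 0.847). In U251 with hairpin 1812 the list had 1 gene called higher, against 0.249% of all genes. This was SPANXB1, which encodes a sperm protein. SPANXB1 and CT45A1 belong to families of near copies, between which reads may be split. It stood at 15.8, 17.6 and 16.7 FPKM with hairpin 1812, against 8, 6.93 and 5.31 FPKM in control (log2 fold change 1.32, SE 0.27, edgeR adjusted p 0.0394), and it stood at 1.01 against control replicate 1 alone (edgeR adjusted p 0.214). With hairpin 1813 no gene of the list was called, and SPANXB1 was at 19.8, 13.5 and 11.5 FPKM.

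Of 44 tested regulators of DNA methylation and chromatin 0 were called higher and 3 lower in U87 with hairpin 1812. Over all genes 2.08% were called higher and 4.71% lower, and the list median was 0.11. DNMT3A, a de novo DNA methyltransferase, stood at 0.27, 0.18 and 0.22 FPKM with the hairpin, against 0.33, 0.75 and 0.96 FPKM in control (log2 fold change -1.48, edgeR adjusted p 0.00445). KDM5B, a histone demethylase that also stands in the cancer-testis list, had a log2 fold change of -1.44 (edgeR adjusted p 0.00955). TET2, an enzyme that oxidises methylated cytosine, was at 0.43, 0.35 and 0.41 FPKM, against 0.21, 2.58 and 2.50 FPKM (log2 fold change -1.99, edgeR adjusted p 0.0258). Control replicate 1 alone left DNMT3A at -0.62 (adjusted p 0.120) and KDM5B at -0.45 (0.202), and it turned TET2 to 0.84 (0.0264). In U251 none of the 44 genes was called with hairpin 1812 (list median -0.24 against 0.01 over all genes) or hairpin 1813 (-0.07 against -0.02).

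The median log2 fold change of 33 tested partners of MAGE proteins was 0.04 in U87 with hairpin 1812. Of these partners 1 was called lower, against 4.71% of all genes. This was the ligase subunit FBXW7 (log2 fold change -1.19, edgeR adjusted p 0.0252), which stood at 0.10 against control replicate 1 alone (edgeR adjusted p 0.782). None of the 33 was called in U251 with either hairpin. None of 7 tested germline genes was called in any hairpin comparison, with medians of -0.30 in U87 and -0.21 and -0.63 in U251 with hairpins 1812 and 1813. Of 14 tested glioma and astrocyte genes CHI3L1 was called higher in U87 with hairpin 1812 and GFAP lower in U251 with hairpin 1812 (log2 fold change -2.72, edgeR adjusted p 2.7e-04). TRO, a further gene with a MAGE homology domain, was not called with any hairpin.

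Several genes of the lists differed between the controls. Over all genes 15.7% were called higher and 15.9% lower in U251 control against U87 control, the shares to set beside each list. Of 23 other cancer-testis genes 8 were called higher and 3 lower, with a list median of 0.81 against -0.04 over all genes. SPANXB1 stood at 8, 6.93 and 5.31 FPKM in U251 control, against 0.13, 0.15 and 0.14 FPKM in U87 control. CSAG1 stood at 3.04, 2.52 and 2.44 FPKM in U251 control and was listed at 0 in all U87 controls. Of the 7 germline genes 2 were higher and 2 lower, and of 33 partners 5 were higher and 1 lower, TRIM27 among them (log2 fold change 1.03, edgeR adjusted p 6.8e-05). Of 44 methylation and chromatin regulators 1 was higher, UHRF2 (log2 fold change 1.65, edgeR adjusted p 1.1e-04), and 0 were lower. TRO was higher in U251 control (log2 fold change 2.94, SE 0.20, edgeR adjusted p 1.8e-08).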

How the data were processed

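The 15 RNA-seq libraries, per the labels' protocols, came from total RNA after removal of ribosomal RNA and were strand-marked with dUTP. Per the submitters' processing notes the authors used bcl2fastq 2.17.1.14, cutadapt 1.9.1, HISAT2 2.0.1, HTSeq 0.6.1, bedtools 2.17.0, DESeq2 and GRCh38. For annotation release and counting strand, nothing is given in the sources used. In the deposited table there is a raw read count and an FPKM value for each gene and library. The authors' FPKM equalled the count scaled by exonic length and library total, within 0.005.

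The counts were tested with edgeR 4.0.16 in R 4.3.3: TMM scaling, filterByExpr, 1 fit of all 15 libraries with 5 group means (16841 genes, 10 residual degrees of freedom) and two-sided quasi-likelihood tests with Benjamini-Hochberg adjustment over all genes tested. A call needed an adjusted p under 0.05 and at least 2-fold change. SE is the absolute log2 fold change divided by the square root of F. CPM values are scaled by TMM. Intervals and floors of counts cover counting error only. The test was checked on simulated counts with the same spread for all genes and groups. Those counts lack the gap between replicate 1 and replicates 2 and 3, so the check does not cover it. Alternatives were DESeq2 1.42.0, RLE scaling, no filter, the compared groups alone, a replicate block, each library left out, control replicate 1 alone (a lone library assumed to vary like the other groups) and a term for control replicates 2 and 3.

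Replicate numbers occur in every group, and whether they pair libraries was checked by the correlation of deviations from group means. Same-numbered libraries correlated above 0.1 in all pairs for hairpin 1813 and control of U251 (0.389, 0.197 and 0.240). They did so too for the controls of both lines (0.422, 0.263 and 0.318), where replicate 2 of U87 correlated more with another number. This comes from the data and not from the labels. The mean chi-square per gene, which counting noise puts at 1, was 1.82 to 6.14 between replicates 2 and 3 of a group and 9.99 to 198 between replicate 1 and either of them, in hairpin and control groups alike. None was treated as a duplicate.

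The members, gene lists, alternatives and tests were chosen with earlier results of these data known. Genes were named by rule: members called in any comparison and MAGEC2 in full, the other tested members, untested members whose group mean reached 0.1 FPKM, and up to 4 called genes of each list. A result on 1 list gene is not reported here. The lists were other cancer-testis genes, germline genes, regulators of DNA methylation and chromatin, partners of MAGE proteins, genes with a MAGE homology domain and glioma or astrocyte genes. Promoters came from RefSeq and shared 100-base stretches from GENCODE 29 transcripts.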

Additional observations from a re-analysis of the deposited data

Results flagged for a closer look

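The effect of hairpin 1812 on MAGED4 differed between the lines, by a test of the difference itself: log2 -4.11 (SE 0.90, edgeR adjusted p 0.0215), from 0.05, 0.02 and 0.03 FPKM in U87 with the hairpin against 0.15, 1.02 and 1.04 FPKM in U87 control, and 0.42, 0.24 and 0.18 FPKM in U251 with the hairpin against 0.44, 0.22 and 0.28 FPKM in U251 control. Control replicates 2 and 3 move with it in U87, and against control replicate 1 alone the difference was -1.47 (edgeR adjusted p 0.323). Their part in the result was not tested further.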

How the results depend on the processing

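Of the recomputed counts of members (called, or at 0.1 FPKM in a group) 160 stayed within 1.5 times of the value reported and 25 did not. Counts of 0 that stayed 0 are among the 160, as in each run of the hairpin comparisons within U251. In U87 with hairpin 1812 the 2 members lower became 0 in a fit of the compared groups alone, 1 against control replicate 1 alone, 1 with a term for control replicates 2 and 3, and 1 to 2 with a library left out. Over all genes the fit of the U87 groups alone called 1 higher and 0 lower of 14729, against 350 and 794 in the main fit. The 0 members higher became 1 without a filter (MAGEE1) and 0 to 1 with a library left out. Between the control lines the 7 higher became 4 with the compared groups alone (7 to 8 with a library left out). In the fit of the compared groups MAGEA2B, MAGEB6 and MAGEB18 fell under the filter on low counts and were not tested. The 2 lower became 4 without a filter (2 to 4 with a library left out). For the difference between lines the 1 member lower became 2 by DESeq2, without a filter and with the term, 0 with the compared groups alone and against control replicate 1 alone, and 0 to 2 with a library left out; the 0 higher became 0 to 1. In U251 with either hairpin and between the hairpins the count was 0 in each alternative run. With control replicate 1 alone kept in each line, U251 control minus U87 control turned to 1.37 for MAGED4 and to -0.76 for MAGEE1, neither past the threshold. Without U87 control replicate 1 MAGEE1 passed in U87 with hairpin 1812 (edgeR adjusted p 8.4e-08) against 2 libraries at 0. The cause of these shifts was not tested.

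The replicate block changed no call: in U87 with hairpin 1812 it left 2 members lower, with MAGEC2 at -2.96 (edgeR adjusted p 0.0104) and MAGED4 at -4.32 (0.00358). For hairpin 1812 and control of U251 the pairing check gave correlations of 0.206, 0.0965 and 0.152, and between the hairpins 0.145, 0.0651 and 0.123. In both comparisons each library correlated best with the library of its own number. In U87 the correlations were 0.0247, -0.0923 and 0.123, and hairpin replicate 2 correlated more with another number. The check does not settle whether these libraries are paired. Depth limits the members under about 0.1 FPKM.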
